A study of Mus musculus with 8 samples.

Results

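The unfolded protein response and the integrated stress response are represented here by 37 genes, out of 45706 Ensembl identifiers counted in mouse liver. They are a list of named sensors, transcription factors, targets, chaperones and quality control genes of the endoplasmic reticulum (ER), matched to the table by Ensembl identifier through the GENCODE annotation of GRCm38. The rule goes by function and reads no measured value, although the list was chosen with earlier results of these data known. All 37 symbols were found, and all 37 passed the filter on low counts that kept 15491 genes. They are described in 6 groups by role, as 3 stress sensors, 6 transcription factors, 4 feedback regulators, 5 metabolic targets of ATF4, 13 ER chaperones and foldases, and 6 genes of ER-associated degradation (ERAD) and protein translocation.

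The unfolded protein response adjusts the folding capacity of the ER to its load, and in the liver it serves cells that secrete most plasma proteins and assemble lipoproteins. Its sensors in the ER membrane are PERK (*Eif2ak3*), IRE1α (*Ern1*) and ATF6 (*Atf6*), which act through eIF2α phosphorylation and translation of *Atf4*, through splicing of *Xbp1* mRNA, and through release of a transcription factor by cleavage in the Golgi. The integrated stress response is the eIF2α and ATF4 arm, which other eIF2α kinases also feed. Much of this signalling takes place in protein modification, translation and splicing, which gene counts do not measure.

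Livers of 8 male mice were sequenced, all of the strain labelled C56B6/J (C57BL/6J in the methods of the study), 4 labelled *Srsf10-kd* (genotype Srsf10KD) and 4 labelled *Ctrl* (genotype WT). Each mouse was injected at 6 weeks of age with an adeno-associated virus of serotype 2/8 that carries GFP and a miR-30-based hairpin under the CBA promoter, which is active in many cell types. The hairpin targets *Srsf10*, a splicing factor of the SR family, in AAV-*Srsf10-kd* and is a control hairpin in AAV-*Ctrl*, so the *Ctrl* livers also carry a virus, GFP and a hairpin. All mice received a high fat diet (HFD, 60% of calories from fat) from 4 weeks after injection, for 12 weeks, so the comparison asks what differs between the labels in mice on this diet and holds no liver from a control diet. Levels are given as CPM, counts scaled by TMM to a common library size, in the order of replicates 1 to 4 of each label. Differences are given as log2FC, the log2 fold change of the livers with the *Srsf10-kd* label over the *Ctrl* livers, with its standard error (SE).

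The libraries held 50456404 to 59697241 counts, and the 37 genes took 0.752% to 0.958% of them. *Srsf10* itself averaged 32.9 ± 1.99 CPM in *Ctrl* and 36.4 ± 3.24 CPM under the other label (SD, n = 4), lowest in *Ctrl* 4 at 30.9 CPM and highest in *Srsf10-kd* 3 at 41.0 CPM (log2FC 0.15, SE 0.10, adjusted p = 0.378 in edgeR's quasi-likelihood test with Benjamini-Hochberg adjustment). It was therefore not lower under the *Srsf10-kd* label in these counts, and directions below refer to the labels. The study itself reported lower SRSF10 protein, and lower *Srsf10* RNA by qPCR, in livers of mice given AAV-*Srsf10-kd*. Hepatocyte markers summed to 76600 to 105000 CPM in *Ctrl* and 94700 to 111000 CPM under the *Srsf10-kd* label, most of it *Alb* (45840 to 83140 CPM). Of the 8 markers 1, *Apob*, had groups that did not overlap, lower under that label (log2FC -0.93). *Cps1* and *Hnf4a* had log2FC values of -0.70 and -0.50, *Pck1* -0.30, *Tat* -0.15 and *Apoa1* -0.0069. *Alb* and *Ttr* were measured higher, at 0.22 and 0.39. *Cps1* measured 2287, 2684, 2362 and 6630 CPM in *Ctrl*, so *Ctrl* 4 raised its *Ctrl* mean. *Srsf10-kd* 3 stood apart on the first principal component (67.4, against -41.8 to 11.5 in the other livers). The 7 listed markers of pancreatic acinar cells, which are rich in ER, summed to 7.97 to 12.9 CPM in *Ctrl* and to 14.8, 318, 23.6 and 17.1 CPM under the *Srsf10-kd* label. All 4 livers of that label thus lay above all *Ctrl* livers, *Srsf10-kd* 2 by far, and 4 of the 7 markers had groups that did not overlap. Over all genes tested, the groups did not overlap for 14.3%, with 6.73% higher and 7.53% lower under the *Srsf10-kd* label. Markers of cholangiocytes summed to 31.4 to 39.1 CPM in *Ctrl* and 46.5 to 68.6 CPM in the livers with the *Srsf10-kd* label. Those of B and plasma cells summed to 19.9 to 35.8 and 39.0 to 43.8 CPM. Groups did not overlap for 2 of 5 cholangiocyte markers, *Krt19* and *Spp1*, and for 1 of 5 B and plasma cell markers, *Jchain*. *Jchain* made up most of the latter sum, at 17.6 to 33.2 and 35.0 to 41.2 CPM. The part of these cells in the results below was not tested, and in bulk liver a lower share of a cell type and less RNA per cell cannot be told apart.

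Promoter sequences are shown first because many of these genes are known targets of the same factors. ATF6 and XBP1 act on the ER stress response element (ERSE, the letters CCAAT, 9 bases, then CCACG) and on ERSE-II (ATTGG, 1 base, CCACG), XBP1 and ATF6 also on the UPRE (TGACGTGG), and ATF4 with a C/EBP protein on the CARE (TGATGCAAT). Windows of 300 bases, from 250 before to 50 after the RefSeq transcription start (GRCm38.p6), were at hand for 33 of the 37 genes. *Atf6*, *Hyou1*, *Manf* and *Ppp1r15b* had no entry. Searched on both strands, the ERSE letters occurred in 9 of 33 (27.3%), namely *Hspa5*, *Hsp90b1*, *Calr*, *Canx*, *Pdia6*, *Dnajc3*, *Creld2*, *Derl3* and *Syvn1*, against 37 of all 27025 genes with a window (0.137%). The ERSE-II letters occurred in *Herpud1* (12 genes of 27025, 0.0444%), the CARE letters in *Nupr1* (60 genes, 0.222%), and the UPRE letters in 0 of 33 (193 genes, 0.714%). The stretches below all lie upstream of the start, on the strand of the gene, with the motif letters in capitals. *Hspa5* (chr2:34771995-34772073, plus strand) is shown as the most abundant of the 37, *Pdia6* (chr12:17266461-17266539, plus) and *Derl3* (chr10:75893212-75893290, plus) as the ERSE genes with the highest and lowest log2FC, and *Herpud1* (chr8:94386347-94386417, plus) and *Nupr1* (chr7:126625543-126625611, minus) as the genes with the other motifs. In *Derl3* and *Nupr1* the letters read on the opposite strand.
Hspa5: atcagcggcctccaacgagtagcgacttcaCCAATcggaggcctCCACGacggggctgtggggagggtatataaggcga
Pdia6: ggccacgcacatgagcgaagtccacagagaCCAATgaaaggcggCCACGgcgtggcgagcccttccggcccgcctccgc
Derl3: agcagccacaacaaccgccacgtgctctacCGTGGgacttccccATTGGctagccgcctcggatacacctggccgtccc
Herpud1: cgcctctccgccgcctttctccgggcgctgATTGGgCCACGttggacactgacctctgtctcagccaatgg
Nupr1: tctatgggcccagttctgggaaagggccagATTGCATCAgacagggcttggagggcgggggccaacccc

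The ERSE ended 47 bases before the start in *Hspa5*, 80 in *Pdia6* and 138 in *Derl3*, and the ERSE-II 42 bases before it in *Herpud1*. *Hsp90b1* held 2 ERSE matches. The log2FC values of the 9 genes with an ERSE ran from -0.17 to 0.25, 3 of them positive and 6 negative, and the groups overlapped for all 9. *Nupr1*, which holds the CARE letters, had the highest log2FC of the 37 genes. The 5 metabolic targets of ATF4 did not hold these exact letters in the windows searched. Of those 5, 2 were measured higher and 3 lower, at a median log2FC of -0.06. Whether the letters go with a direction was not tested. A match of letters is a description of the sequence and not a measured binding site.

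Across the comparison of the labels, 0 of the 37 genes passed the threshold of 0.05 on the adjusted p of edgeR's quasi-likelihood test, where 11 of 15491 genes did (0.071%). At an unadjusted p under 0.05 there were 9 of 37 (24.3%), against 21.8% of all genes tested. These were 4 genes higher in the livers with the *Srsf10-kd* label (10.8%, against 11.2% of all genes), *Atf4*, *Ddit3*, *Nupr1* and *Ppp1r15a*, and 5 genes lower (13.5%, against 10.6%), *Atf6*, *Ppp1r15b*, *Sesn2*, *Hyou1* and *Sel1l*. For 5 of 37 genes (13.5%, against 14.3% of all genes) the 2 groups of livers did not overlap, *Nupr1* and *Ppp1r15a* higher (5.41%, against 6.73%) and *Atf6*, *Ppp1r15b* and *Sel1l* lower (8.11%, against 7.53%). All these shares are near those of all genes tested, so the counts set the 37 genes apart in neither direction. DESeq2 called 2 of 37 (5.41%), *Atf6* lower and *Nupr1* higher, against 824 of 15643 genes (5.27%). Of the 37, 16 had a positive and 21 a negative log2FC, with a median of -0.09 beside 0.01 over all genes tested.

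**Figure D1:**
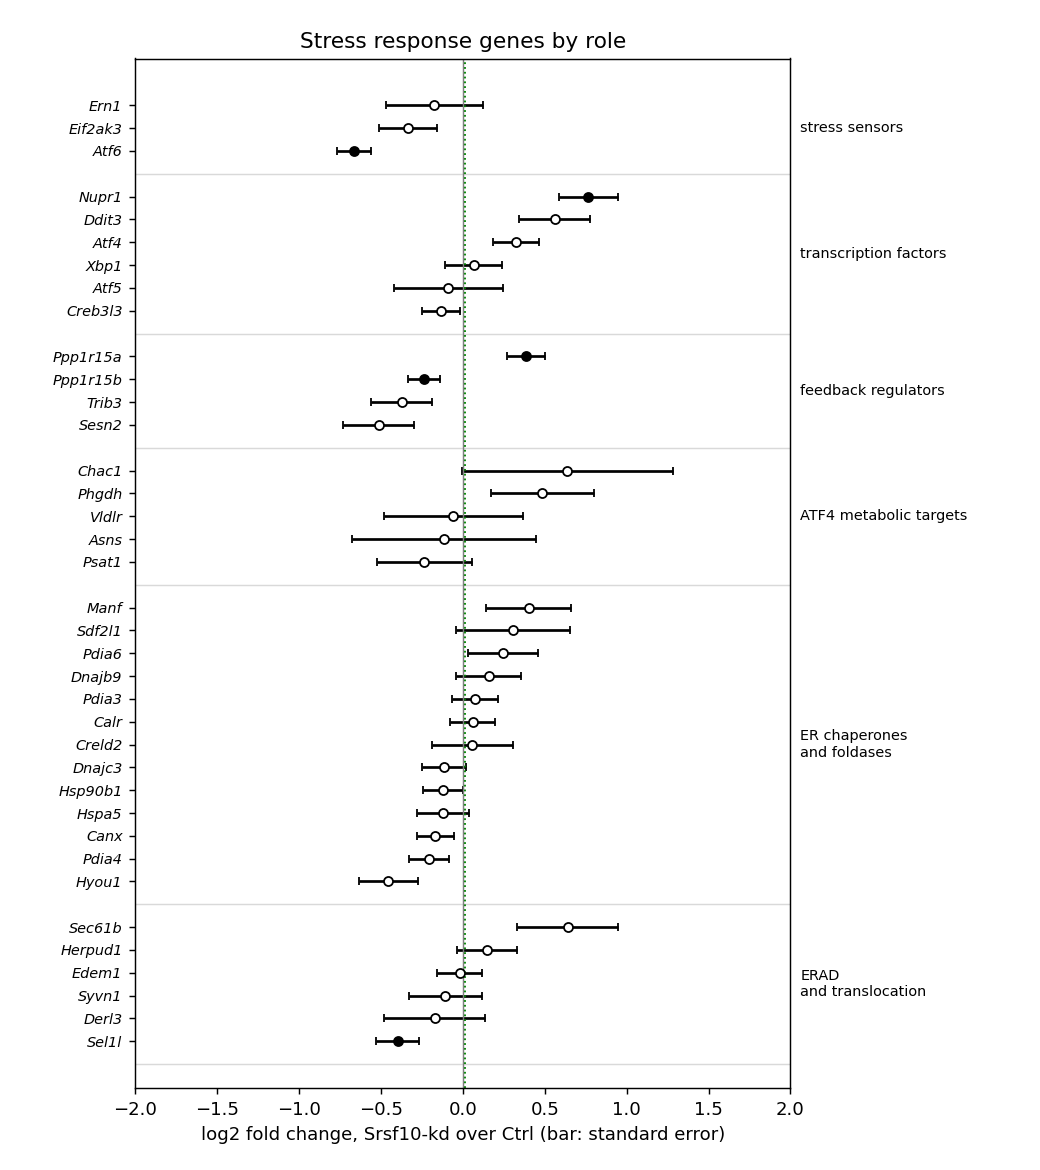
Log2FC of each of the 37 genes, livers with the *Srsf10-kd* label over *Ctrl* livers (n = 4 each), with the SE of edgeR's fit as bars; genes are grouped by role, filled points mark the 5 genes whose groups do not overlap, and the dotted line is the median of all genes tested. The sensors lie left of 0, the other groups lie on both sides, and the extremes are *Atf6* at -0.66 and *Nupr1* at 0.77.

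All 3 stress sensors were measured lower under the *Srsf10-kd* label, at a median log2FC of -0.33, and 0 of 3 passed the test. *Atf6*, the membrane-bound transcription factor that is cut free on ER stress (ENSMUSG00000026663, chromosome 1, 170704674 to 170867771), measured 88.0, 96.5, 80.7 and 78.5 CPM in *Ctrl* and 58.3, 56.0, 52.8 and 49.9 CPM in the livers with the *Srsf10-kd* label. Each *Ctrl* liver lay above each liver labelled *Srsf10-kd*, with means of 85.9 ± 8.13 and 54.2 ± 3.66 CPM (SD, n = 4). The mean was 36.9% lower, and the log2FC was -0.66 (SE 0.11). Its adjusted p in edgeR's quasi-likelihood test was 0.0769 and its unadjusted p 9.31e-05. An exact permutation test of its log2 CPM, two-sided over the 70 ways to assign the livers, gave 0.0286, the smallest p it allows. The call depended on the tool, as the adjusted p was 3.93e-06 in DESeq2 and 0.00627 in limma-voom with sample quality weights. Within edgeR it was 0.0271 without *Ctrl* 3, 0.0490 without *Srsf10-kd* 3 and 0.125 without *Srsf10-kd* 2, and over all other settings run it lay between 3.93e-06 and 0.292.

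*Eif2ak3*, which encodes the eIF2α kinase PERK (ENSMUSG00000031668, chromosome 6, 70844515 to 70905245), measured 20.3, 21.6, 12.9 and 15.9 CPM in *Ctrl* and 16.3, 12.9, 11.8 and 15.1 CPM in the livers with the *Srsf10-kd* label. The groups overlapped, because *Ctrl* 3 and *Ctrl* 4 lay among the others, and the log2FC was -0.33 (SE 0.18, adjusted p = 0.280 in edgeR's quasi-likelihood test). A transcript on the other strand shares 4.47% of its 75-base stretches. *Ern1*, which encodes the kinase and RNase IRE1α (ENSMUSG00000020715, chromosome 11, 106394650 to 106487852), measured 59.5, 36.1, 18.5 and 40.2 CPM and 38.0, 39.9, 25.0 and 33.8 CPM. The lowest and the highest liver were both *Ctrl*. Its log2FC of -0.17 (SE 0.30, adjusted p = 0.734 in the same edgeR test) was smaller than its error, and it was 0.11 without *Ctrl* 1.

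Among the 6 transcription factors, 4 were measured higher and 2 lower, at a median log2FC of 0.20, and 0 of 6 passed the test. *Atf4*, the central factor of the integrated stress response (ENSMUSG00000042406, chromosome 15, 80255184 to 80257541), measured 71.1, 59.5, 66.4 and 67.8 CPM in *Ctrl* and 81.4, 70.1, 106.9 and 73.4 CPM in the livers with the *Srsf10-kd* label. *Srsf10-kd* 2 lay within the *Ctrl* range, just below *Ctrl* 1, and the other 3 livers of that label lay above it. The log2FC was 0.33 (SE 0.14, unadjusted p = 0.0459, adjusted p = 0.222 in edgeR's quasi-likelihood test), and the exact permutation p was 0.0571. It was 0.18 (unadjusted p = 0.0938, adjusted p = 0.380) without *Srsf10-kd* 3 and 0.19 (unadjusted p = 0.162, adjusted p = 0.460) with the length trend removed, and the unadjusted p was also over 0.05 without each other liver but *Srsf10-kd* 2 and 4.

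*Ddit3*, which encodes the pro-apoptotic factor CHOP (ENSMUSG00000025408, chromosome 10, 127290774 to 127296288), measured 10.6, 7.46, 5.99 and 9.66 CPM in *Ctrl* and 15.7, 14.2, 9.63 and 10.1 CPM in the livers with the *Srsf10-kd* label. *Srsf10-kd* 1 and 2 lay above all *Ctrl* livers, and *Srsf10-kd* 3 and 4 lay among them. The log2FC was 0.56 (SE 0.22, unadjusted p = 0.0271, adjusted p = 0.190 in edgeR's quasi-likelihood test). Other annotated genes overlap 10.9% of its exon length, so part of its count is uncertain.

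*Nupr1*, a stress-induced chromatin protein and target of ATF4 (ENSMUSG00000030717, chromosome 7, 126623249 to 126630861), measured 1.13, 1.23, 1.17 and 0.948 CPM in *Ctrl* and 1.52, 2.19, 1.67 and 2.25 CPM in the livers with the *Srsf10-kd* label. The groups did not overlap, and the means were 1.12 ± 0.12 and 1.91 ± 0.37 CPM (SD, n = 4). The log2FC was 0.77 (SE 0.18, unadjusted p = 0.00185, adjusted p = 0.116 in edgeR's quasi-likelihood test), and the exact permutation p was at its minimum of 0.0286. Its adjusted p was 0.0167 in DESeq2 and 0.0280 in limma-voom. At about 1 to 2 CPM it was among the least abundant of the 37 genes.

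*Xbp1*, whose mRNA is the substrate of IRE1α (ENSMUSG00000020484, chromosome 11, 5520659 to 5525893), measured 239, 205, 231 and 185 CPM in *Ctrl* and 205, 169, 300.1 and 229 CPM in the livers with the *Srsf10-kd* label. The lowest and the highest liver were *Srsf10-kd* 2 and *Srsf10-kd* 3, and the log2FC was 0.07 (SE 0.17, unadjusted p = 0.705 in edgeR's quasi-likelihood test). Counts per gene do not separate its spliced from its unspliced form. *Atf5*, a relative of *Atf4* that is abundant in liver, measured 353, 329, 312 and 633 CPM in *Ctrl* and 519, 295, 196 and 519 CPM in the livers with the *Srsf10-kd* label. *Ctrl* 4 stood far above the other *Ctrl* livers, and the log2FC was -0.09 (SE 0.33). *Creb3l3*, a liver-enriched factor of the ATF6 type that governs lipid genes, ranged from 444 to 580.0 CPM and had a log2FC of -0.13 (SE 0.12). Its highest liver was 1.31 times its lowest, the narrowest spread of the 37.

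The 4 feedback regulators split by gene, with 1 higher and 3 lower and a median log2FC of -0.30, and 0 of 4 passed the test. *Ppp1r15a* and *Ppp1r15b* encode the partners that direct protein phosphatase 1 to eIF2α, the first induced by stress (GADD34) and the second constitutive (CReP). *Ppp1r15a* (ENSMUSG00000040435, chromosome 7, 45522916 to 45526268) measured 16.1, 17.0, 21.7 and 17.1 CPM in *Ctrl* and 25.2, 22.5, 23.5 and 22.8 CPM in the livers with the *Srsf10-kd* label. The groups did not overlap, although *Ctrl* 3 came close to *Srsf10-kd* 2. The log2FC was 0.39 (SE 0.12, unadjusted p = 0.00755, adjusted p = 0.138 in edgeR's quasi-likelihood test, permutation p = 0.0286). *Ppp1r15b* (ENSMUSG00000046062, chromosome 1, 133131143 to 133139783) measured 101.9, 102.7, 98.3 and 108.6 CPM and 79.0, 92.9, 90.1 and 87.3 CPM. Here each *Ctrl* liver lay above each liver labelled *Srsf10-kd*, with a log2FC of -0.24 (SE 0.10, unadjusted p = 0.0330, adjusted p = 0.202 in edgeR's quasi-likelihood test, permutation p = 0.0286). Of the 75-base stretches of *Ppp1r15b*, 10.1% also occur in another annotated transcript. The pair was thus measured in opposite directions, and neither difference passed the adjusted threshold.

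*Sesn2*, which encodes Sestrin 2, an inhibitor of mTORC1 signalling, measured 9.55, 14.6, 8.45 and 10.3 CPM in *Ctrl* and 9.87, 7.75, 5.37 and 7.002 CPM in the livers with the *Srsf10-kd* label. The groups overlapped through *Srsf10-kd* 1, and the log2FC was -0.51 (SE 0.21, unadjusted p = 0.0376, adjusted p = 0.209 in edgeR's quasi-likelihood test) and -0.33 (unadjusted p = 0.133) without *Ctrl* 2. *Trib3*, a pseudokinase that binds ATF4 and AKT, measured 6.37, 10.4, 8.89 and 12.2 CPM and 7.72, 6.75, 8.05 and 6.66 CPM, with a log2FC of -0.37 (SE 0.19, adjusted p = 0.262). Its lowest liver was *Ctrl* 1.

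**Figure D2:**
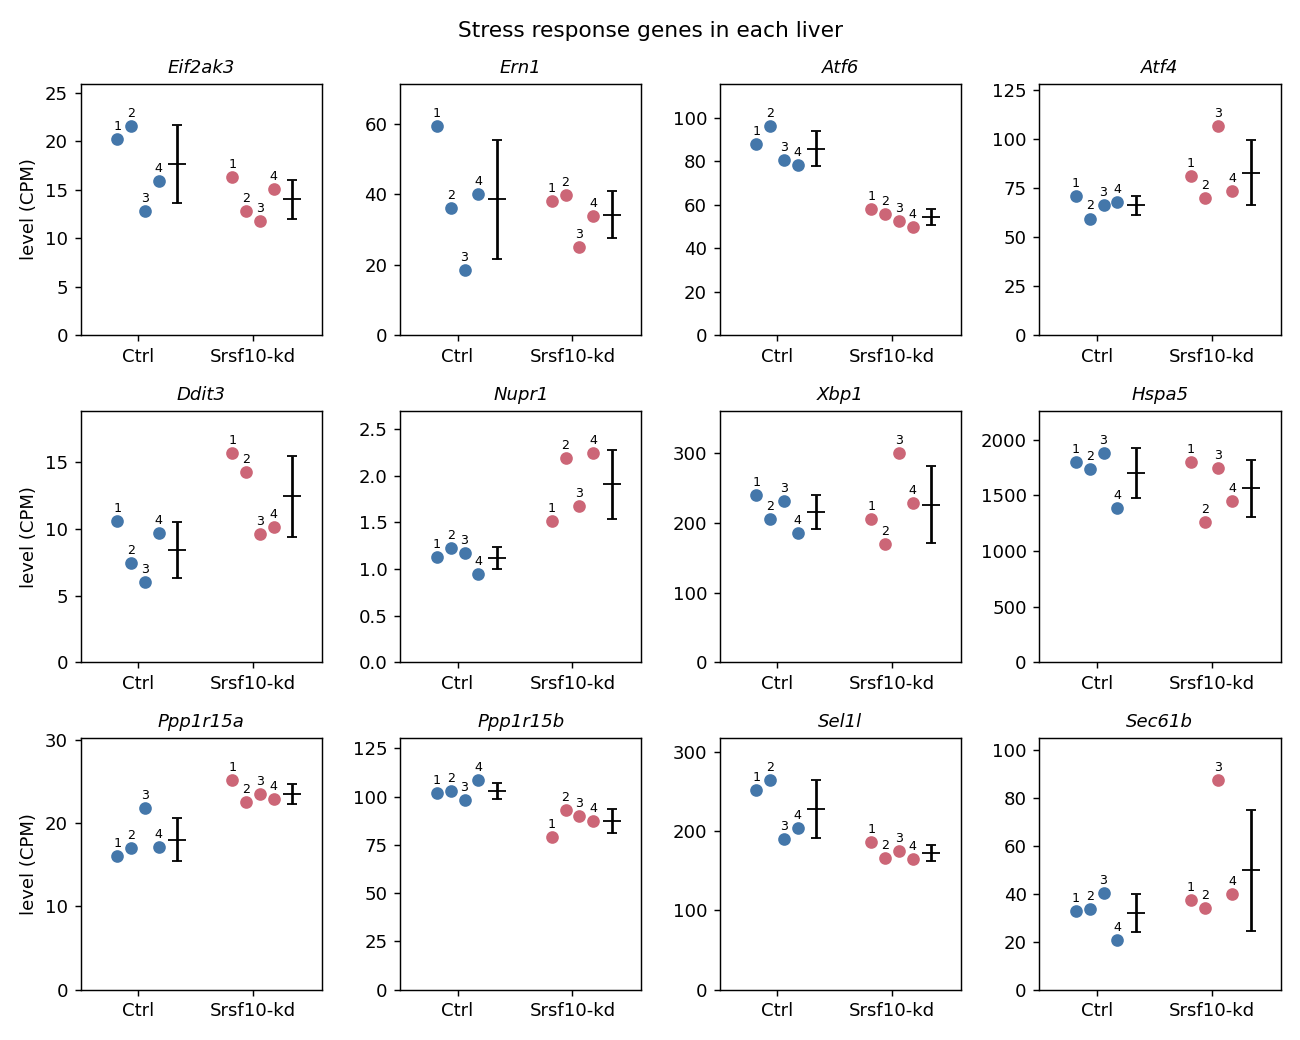
Level in CPM of 12 of the 37 genes in each of the 8 livers, with replicate numbers above the points and the mean and SD of each label (n = 4) beside them; every axis starts at 0. *Atf6*, *Ppp1r15b* and *Sel1l* sit lower, and *Nupr1* and *Ppp1r15a* higher, in all 4 livers with the *Srsf10-kd* label than in all 4 *Ctrl* livers, while *Xbp1* and *Hspa5* overlap.

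The 5 metabolic targets of ATF4 varied more between livers than between labels, with 2 higher, 3 lower, a median log2FC of -0.06, and 0 of 5 passing the test. *Asns*, asparagine synthetase, measured 2.05, 1.05, 1.83 and 5.30 CPM in *Ctrl* and 3.78, 1.31, 0.837 and 3.49 CPM in the livers with the *Srsf10-kd* label. *Chac1*, which degrades glutathione, measured 5.12, 1.15, 1.55 and 0.579 CPM and 1.88, 1.77, 6.79 and 2.66 CPM. *Chac1* was highest in *Srsf10-kd* 3 and lowest in *Ctrl* 4, whereas *Asns* was lowest in *Srsf10-kd* 3 and highest in *Ctrl* 4. The highest liver exceeded the lowest 11.7 times for *Chac1* and 6.34 times for *Asns*, the widest spreads of the 37 genes, and the log2FC values were 0.64 (SE 0.64) and -0.11 (SE 0.56). That of *Chac1* ran from 0.0013 without *Srsf10-kd* 3 to 1.58 without *Ctrl* 1, where its unadjusted p was 0.0164 and its adjusted p 0.251. The serine synthesis genes *Phgdh* and *Psat1* were the least abundant per length. *Phgdh* ranged from 0.158 to 0.423 CPM (log2FC 0.49, SE 0.31), and 35.8% of its 75-base stretches occur in other transcripts. *Psat1* ranged from 0.461 to 1.15 CPM (log2FC -0.23, SE 0.29). *Vldlr*, the VLDL receptor, measured 6.32, 12.5, 5.79 and 4.11 CPM and 4.60, 13.4, 5.19 and 4.42 CPM, so that 1 liver of each label was high and the log2FC was -0.06 (SE 0.42).

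The 13 ER chaperones and foldases lay on both sides of 0, with 7 higher, 6 lower, a median log2FC of 0.06 and 0 of 13 passing the test. The groups overlapped for all 13. *Hspa5*, which encodes the chaperone BiP that holds the sensors inactive (ENSMUSG00000026864, chromosome 2, 34771970 to 34777547), measured 1797, 1740, 1882 and 1382 CPM in *Ctrl* and 1798, 1260, 1746 and 1450 CPM in the livers with the *Srsf10-kd* label. The means were 1700 ± 220 and 1564 ± 254 CPM (SD, n = 4). The difference was within the spread of either group, with a log2FC of -0.12 (SE 0.16, adjusted p = 0.648 in edgeR's quasi-likelihood test). *Hyou1*, a large chaperone that exchanges nucleotide on BiP, measured 320.2, 305, 199 and 211 CPM and 229, 184, 162 and 182 CPM. *Srsf10-kd* 1 lay above *Ctrl* 3 and 4, and the log2FC was -0.45 (SE 0.18, unadjusted p = 0.0318, adjusted p = 0.199 in edgeR's quasi-likelihood test).

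Of the other chaperones, the BiP cofactors *Dnajb9* and *Dnajc3* had log2FC values of 0.16 and -0.11, and *Sdf2l1*, which works with BiP, 0.30. The HSP90 of the ER, *Hsp90b1*, had -0.12. The glycoprotein chaperones *Calr* and *Canx* had 0.06 and -0.17. The disulfide isomerases *Pdia3*, *Pdia4* and *Pdia6* had 0.07, -0.20 and 0.25. The secreted ER proteins *Manf* and *Creld2* had 0.40 and 0.06. Adjusted p-values of these 11 genes in edgeR's quasi-likelihood test lay between 0.332 for *Pdia4* and 0.901 for *Creld2*. Other annotated transcripts share 6.73% of the 75-base stretches of *Hsp90b1* and 4.75% of those of *Manf*, so part of these counts is uncertain.

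Single livers set the order of the chaperones. *Srsf10-kd* 3 was the highest of the 8 livers for 8 of the 13 genes, *Calr*, *Pdia3*, *Pdia6*, *Dnajb9*, *Dnajc3*, *Sdf2l1*, *Creld2* and *Manf*, and the lowest for *Hyou1*. *Srsf10-kd* 2, the liver with acinar markers at 318 CPM, was the lowest for 7, *Hspa5*, *Hsp90b1*, *Calr*, *Canx*, *Pdia3*, *Pdia4* and *Dnajc3*. *Ctrl* 4 was the lowest for the other 5, *Pdia6*, *Dnajb9*, *Sdf2l1*, *Creld2* and *Manf*. *Manf* measured 155, 154, 148 and 100.2 CPM in *Ctrl* and 159, 125, 297 and 155 CPM in the livers with the *Srsf10-kd* label. *Sdf2l1* measured 48.3, 50.1, 47.2 and 25.9 CPM and 44.9, 29.3, 96.5 and 41.1 CPM. In both genes *Ctrl* 4 lay below the other *Ctrl* livers and *Srsf10-kd* 3 far above all others. As a median over the 13 genes of the deviation from the 8-liver mean of log2 CPM, the livers stood at 0.14, 0.12, 0.06 and -0.22 in *Ctrl* and at 0.04, -0.29, 0.30 and -0.06 under the *Srsf10-kd* label. Without *Srsf10-kd* 3 the median log2FC of the 13 was -0.16, below 0, and those of *Manf*, *Pdia6* and *Sdf2l1* were 0.07, 0.01 and -0.16. Without *Srsf10-kd* 2 the median of the 13 was 0.14.

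**Figure D3:**
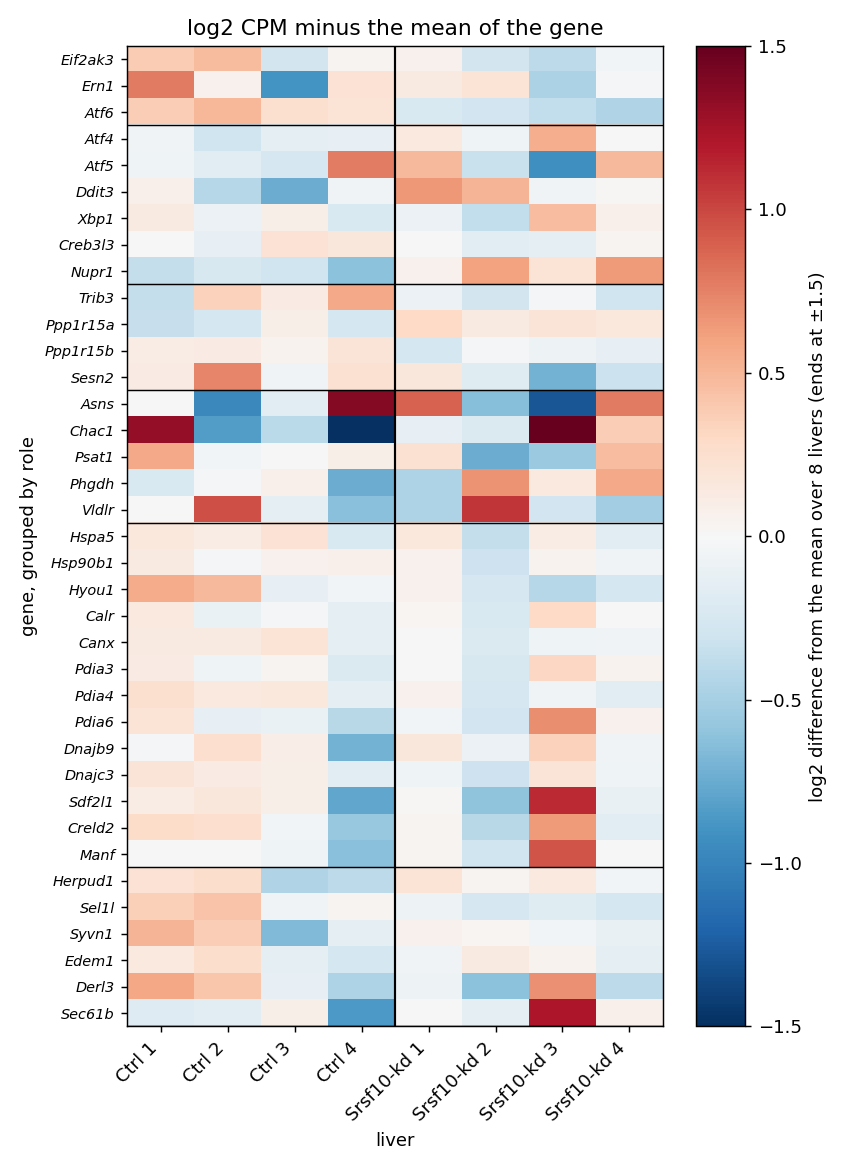
Log2 CPM of the 37 genes in the 8 livers as a difference from the mean of each gene, grouped by role from the sensors at the top to ERAD and translocation at the bottom; red is above and blue below the mean of the gene, and colours end at ±1.5. *Srsf10-kd* 3 is red for *Sdf2l1*, *Manf*, *Creld2* and *Sec61b* and blue for *Asns* and *Atf5*, while *Ctrl* 4 has the reverse colours in these 6 genes.

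In ERAD and translocation, 2 genes were measured higher and 4 lower, at a median log2FC of -0.06, and 0 of 6 passed the test. *Sel1l*, the adaptor of the HRD1 ubiquitin ligase complex (ENSMUSG00000020964, chromosome 12, 91806043 to 91849157), measured 252, 264, 190.1 and 203 CPM in *Ctrl* and 186, 166, 174 and 165 CPM in the livers with the *Srsf10-kd* label. The groups did not overlap, though *Ctrl* 3 and *Srsf10-kd* 1 were close. The log2FC was -0.40 (SE 0.13, unadjusted p = 0.0118, adjusted p = 0.152 in edgeR's quasi-likelihood test, permutation p = 0.0286). *Syvn1*, the HRD1 ligase itself, ranged from 64.6 to 146 CPM in *Ctrl* and from 94.9 to 106.9 CPM under the *Srsf10-kd* label, with a log2FC of -0.11 (SE 0.22). It thus did not share the separation of its adaptor, and whether the pair differed was not tested.

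*Sec61b*, the β subunit of the translocation channel, measured 33.0, 33.7, 40.3 and 20.9 CPM in *Ctrl* and 37.6, 34.1, 87.5 and 39.9 CPM in the livers with the *Srsf10-kd* label. *Srsf10-kd* 3 stood far above the other livers, and the log2FC was 0.64 (SE 0.31, adjusted p = 0.254 in edgeR's quasi-likelihood test) and 0.22 without that liver. Of its 75-base stretches, 10.1% occur in other transcripts. *Herpud1*, which recruits ERAD factors, measured 888, 918, 557 and 579 CPM and 883, 786, 848 and 743 CPM, with *Ctrl* 3 and 4 low and a log2FC of 0.15 (SE 0.18). *Edem1*, a mannosidase-like factor of glycoprotein ERAD, had -0.02 (SE 0.14). *Derl3*, a derlin of secretory cells, ranged from 4.57 to 11.3 CPM and had -0.17 (SE 0.31).

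Per kilobase of merged exon length, which allows levels of different genes to be compared, *Hspa5* was the most abundant of the 37 at 386 CPM per kb, followed by *Herpud1* at 332, *Calr* at 282 and *Hsp90b1* at 265 CPM per kb. Over the 8 livers, *Hspa5* ranged from 298 to 445 CPM per kb and *Herpud1* from 239 to 393. *Calr* ranged from 239.7 to 345 and *Hsp90b1* from 212 to 290.4 CPM per kb. These ranges overlapped, except that *Hspa5* lay above *Hsp90b1* throughout. Among the transcription factors, *Atf5* averaged 198 and *Creb3l3* 166 CPM per kb, and their order was not the same in all livers, with *Atf5* above *Creb3l3* in 6 of 8 and ranges of 98.3 to 318 and 147 to 192 CPM per kb. *Xbp1* followed at 67.9 and *Atf4* at 31.6 CPM per kb, with ranges of 52.1 to 92.4 and 25.3 to 45.3 CPM per kb that did not overlap. The sensors were scarcer, with *Atf6* at 7.59, *Ern1* at 4.45 and *Eif2ak3* at 2.63 CPM per kb. *Ddit3* stood at 6.08 CPM per kb, and 5 genes, *Asns*, *Vldlr*, *Nupr1*, *Psat1* and *Phgdh*, were under 1 CPM per kb.

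Of 99 tested genes, listed by function as other integrated stress response, ER folding, ERAD, translocation and signal peptide genes and decay targets of IRE1, 0 passed the adjusted threshold in edgeR's quasi-likelihood test. At an unadjusted p under 0.05 there were 26 (26.3%, against 21.8% of all genes tested), 11 higher (11.1%, against 11.2%) and 15 lower (15.2%, against 10.6%). Groups did not overlap for 21 (21.2%, against 14.3%), 7 higher (7.07%, against 6.73%) and 14 lower (14.1%, against 7.53%). Both lower shares were thus above those of all genes. At an unadjusted p under 0.05 the lower share was near that of the 37 genes (13.5%), and without overlap it was above theirs (8.11%). These differences were not tested. The 28 further integrated stress response genes had a median log2FC of 0.0050 (2 higher and 4 lower at unadjusted p under 0.05). The 25 ER folding genes had -0.09 (2 and 5), the 17 ERAD genes -0.02 (1 and 2), the 25 translocation and signal peptide genes 0.11 (6 and 4), and the 4 IRE1 decay targets -0.20 (0 at that p). The 6 with the smallest p among those without overlap were *Edem3*, *Lman1*, *Cebpb*, *Ero1l*, *Bcap31* and *Sec62*.

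*Edem3*, which trims mannose from misfolded glycoproteins, measured 53.8, 62.7, 54.8 and 55.6 CPM in *Ctrl* and 40.3, 38.4, 33.5 and 36.8 CPM in the livers with the *Srsf10-kd* label (log2FC -0.61, SE 0.10, adjusted p = 0.0816 in edgeR's quasi-likelihood test). *Lman1*, a cargo receptor for glycoproteins leaving the ER, had -0.48 (adjusted p = 0.0935 in the same edgeR test) and *Ero1l*, the ER oxidase, -0.49 (adjusted p = 0.129). *Cebpb*, a C/EBP factor that pairs with ATF4, measured 153.5, 123, 89.1 and 112 CPM and 183, 166, 246 and 184 CPM, with a log2FC of 0.71 (SE 0.18, adjusted p = 0.119 in edgeR's quasi-likelihood test). *Bcap31*, an ER membrane protein of quality control, had 0.38 (adjusted p = 0.133) and *Sec62*, an accessory subunit of translocation, 0.58 (adjusted p = 0.151).

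The log2FC values of the 37 genes went down with transcript length. Spearman's correlation with merged exon length was -0.56 across the 37 genes, which share the same 8 libraries and are not independent. Of the 18 genes shorter than the median of 3139 bases, 12 were higher in the livers with the *Srsf10-kd* label, and of the 18 longer genes 3 were. *Atf6* (9231 bases) and *Sel1l* (8555 bases) were among the longest. The same trend ran through the libraries as a whole, as the slope of log2 CPM on log2 length over genes was 0.49 to 0.609 in *Ctrl* and 0.383 to 0.502 under the *Srsf10-kd* label, lowest in *Srsf10-kd* 3. With the trend on length of each library removed, the groups did not overlap for 3 of the 37 genes, *Atf6*, *Nupr1* and *Ppp1r15a*. The share over all genes was not counted for these corrected levels, so this count has nothing to be set against. *Atf6* then had a log2FC of -0.45 (adjusted p = 0.156 in edgeR's quasi-likelihood test), *Nupr1* 0.66 (adjusted p = 0.181) and *Ppp1r15a* 0.32 (adjusted p = 0.202). *Sel1l* had -0.19 (adjusted p = 0.438) and *Ppp1r15b* -0.13 (adjusted p = 0.521), and the groups of both overlapped. *Ddit3* had 0.37 (adjusted p = 0.475) and *Hyou1* -0.29 (adjusted p = 0.386), both with an unadjusted p over 0.05. Other genes kept or gained an unadjusted p under 0.05 in the same edgeR test. These were *Trib3* at -0.53 (adjusted p = 0.222), *Pdia4* at -0.33 (adjusted p = 0.223) and *Sesn2* at -0.54 (adjusted p = 0.255). The part of RNA quality or library preparation in this trend was not tested.

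**Figure D4:**
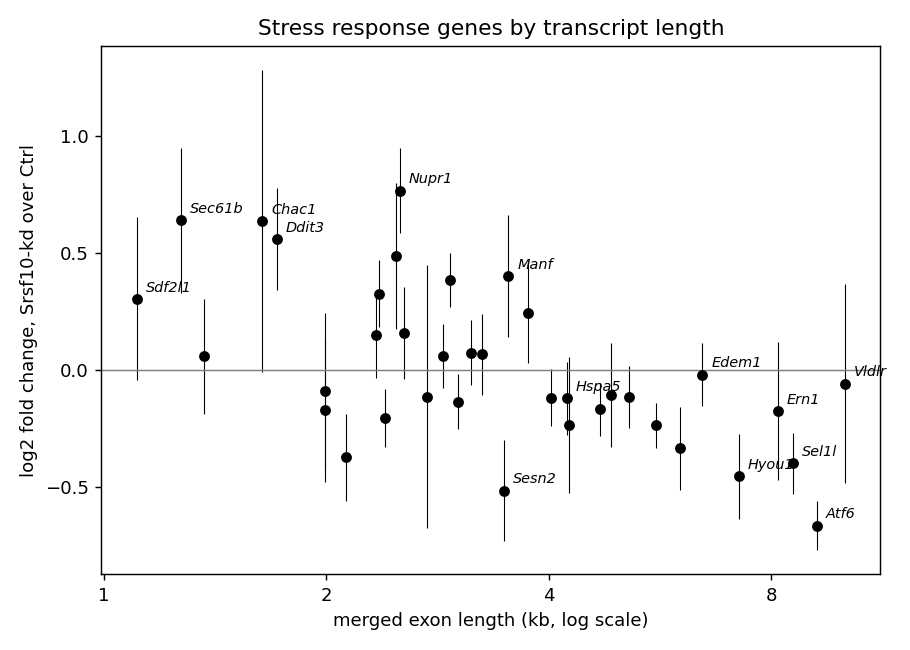
Log2FC of the 37 genes (livers with the *Srsf10-kd* label over *Ctrl* livers, n = 4 each, bars are SEs) against merged exon length in kb on a log axis, with the genes at the ends of either axis and those with large changes named. Short genes such as *Sec61b* and *Chac1* lie above 0, and long genes such as *Hyou1*, *Sel1l* and *Atf6* lie below it.

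The 5 genes without overlap keep their direction by construction when a liver is left out, so their direction says little about stability, and their sizes and calls are given instead. Over 17 other settings the log2FC lay between -0.73 and -0.45 for *Atf6*, between 0.66 and 0.86 for *Nupr1*, between 0.32 and 0.49 for *Ppp1r15a*, between -0.27 and -0.13 for *Ppp1r15b* and between -0.50 and -0.19 for *Sel1l*. An adjusted p under 0.05 was reached in 6 of the 17 settings for *Atf6*, in 2 each for *Nupr1* and *Ppp1r15a*, and in 1 each for *Ppp1r15b* and *Sel1l*.

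**Figure D5:**
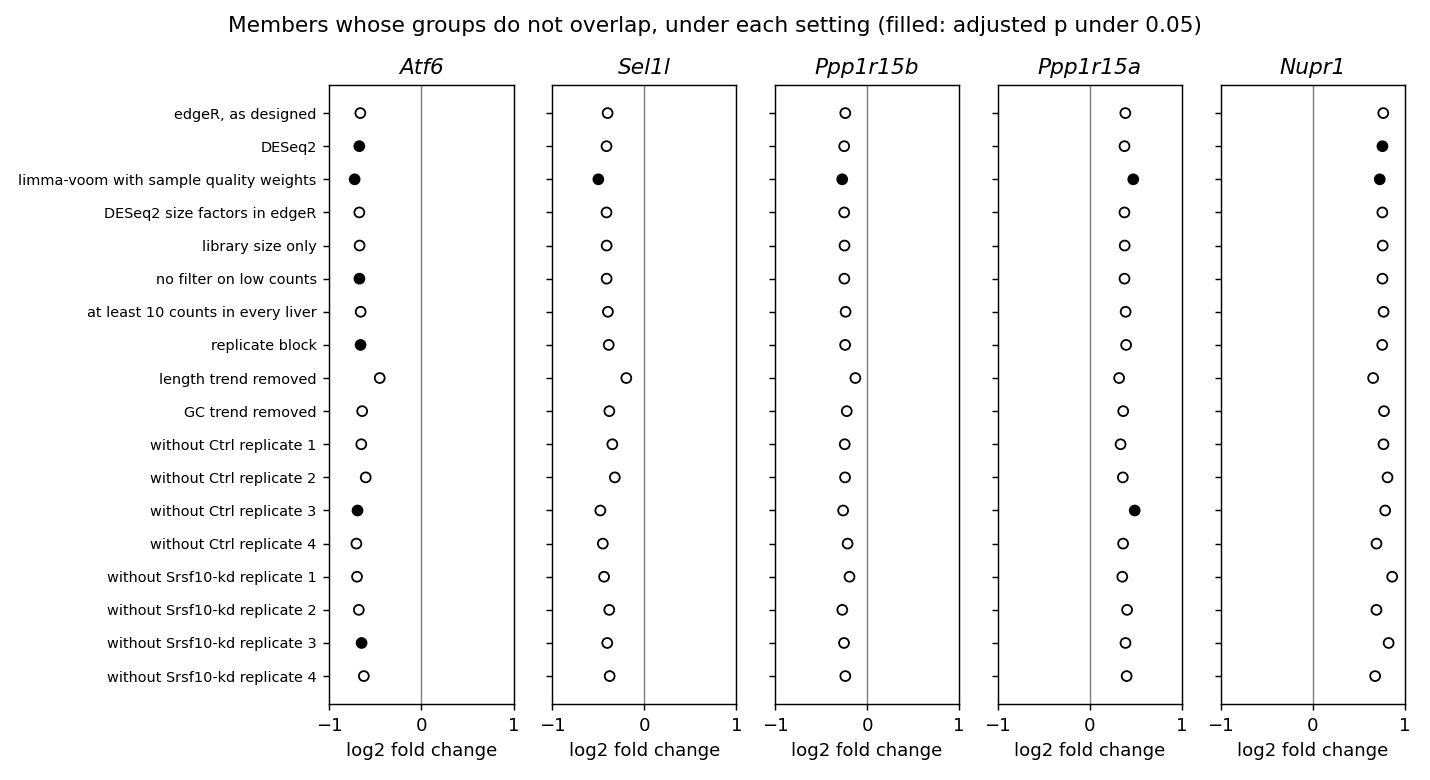
Log2FC of the 5 genes without overlap in the comparison as designed and in 17 other settings, 1 row per setting, with filled points where the adjusted p was under 0.05. The points stay on 1 side of 0 in each panel, the filled ones include limma-voom for all 5 genes, and the value nearest 0 in each of the 5 panels is the one with the length trend removed.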

How the data were processed

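Livers of 4 mice labelled *Srsf10-kd* and 4 labelled *Ctrl* were analysed. Poly(A) RNA was sequenced from libraries of a directional kit. The authors aligned the reads with STAR 2.7.7a to GRCm38 (mm10) and deposited raw counts per gene for each liver, without normalization. The annotation release and the strand column are not given in the sources used here, so genes that overlap others on either strand are uncertain. The livers come from separate mice, and p-values measure the spread between them. Totals of 50456404 to 59697241 counts per liver make counting error small beside that spread for all but the scarcest genes.

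The counts were compared in R 4.3.3 with edgeR 4.0.16 (TMM, filterByExpr with a minimum count of 10, quasi-likelihood fit on label alone, two-sided, Benjamini-Hochberg adjustment over 15491 genes, threshold 0.05). The study used DESeq2, which was run as an alternative (1.42.0), as was limma-voom (3.58.1). Other alternatives were other scalings, no filter, a stricter filter (10 counts or more in each liver), a block for the replicate number, trends on transcript length and GC content removed by lowess (span 0.5), and each liver left out in turn. No genome sequence was used, so GC content came from the longest transcript of each gene, a choice made after seeing the data. Log2 CPM used a prior count of 2. Symbols, positions and exon lengths come from GENCODE M21, which held 45143 of the identifiers and lacked 563. The scripts were tested on simulated data.

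The members and lists were chosen with earlier results of these data known. Values in every liver are given for members past the adjusted threshold, without overlap between groups, at the head of a branch (*Eif2ak3*, *Ern1*, *Atf6*, *Atf4*, *Xbp1*, *Ddit3*, *Hspa5*) or with a liver past Dixon's critical value. From the pathway lists, up to 6 genes without overlap were named by smallest p. Values in every liver of *Sesn2*, *Trib3*, *Asns*, *Chac1*, *Hyou1* and *Herpud1* were added after they were seen. *Slc7a11* did not pass the filter, and 1 listed symbol, *Ufd1l*, was not matched.

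Marker lists were summed per liver in CPM. Kupffer cell markers gave 167 to 253 in *Ctrl* and 137 to 241 under the *Srsf10-kd* label, stellate cell markers 191 to 213 and 170 to 292, endothelial markers 192 to 217 and 182 to 214, T cell markers 0.955 to 1.85 and 0.807 to 1.77, and neutrophil markers 0.456 to 0.769 and 0.285 to 1.30. No marker was at 0 in all 8 livers, and all 4 T cell and all 4 neutrophil markers were under 1 CPM in every liver.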

Additional observations from a re-analysis of the deposited data

Results flagged for a closer look

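Dixon's test at its 95% critical value was applied to the values of the report in each group of 4 livers, 90 groups in all, and 5 of them held a liver far from the other 3. *Ctrl* 4 had 633 CPM of *Atf5*, where *Ctrl* 1 to 3 had 312 to 353 CPM. *Sdf2l1* measured 25.9 CPM in *Ctrl* 4, against 47.2 to 50.1 CPM, and *Manf* measured 100 CPM there, against 148 to 155 CPM. *Vldlr* measured 13.4 CPM in *Srsf10-kd* 2, against 4.42 to 5.19 CPM in the other livers of that label. *Sec61b* measured 87.5 CPM in *Srsf10-kd* 3, against 34.1 to 39.9 CPM. Chance alone gives about 1 such result in 20 groups, which is 4.5 of the 90.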

How the results depend on the processing

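The number of genes called by edgeR over the whole table moved from 11 to 824 in DESeq2 (61.7% of them lower), 1814 in limma-voom with sample quality weights (57.1% lower), 46 without a filter on low counts, 59 with the replicate number as a block and 6 with the length trend removed. With 1 liver left out it lay between 0 and 544, with 544 without *Ctrl* 3, 64 without *Srsf10-kd* 3, 5 without *Ctrl* 4, 4 without *Ctrl* 1, and 0 without *Ctrl* 2 or *Srsf10-kd* 1, 2 or 4, where 2154 to 3656 genes still had an unadjusted p under 0.05. Of the 37 genes, 0 were called as designed, 2 in DESeq2 (*Atf6*, *Nupr1*), 6 in limma-voom (*Atf6*, *Hyou1*, *Nupr1*, *Ppp1r15a*, *Ppp1r15b*, *Sel1l*), 1 without a filter and 1 with the replicate block (*Atf6*, adjusted p 0.0453 and 0.0470). With 1 liver left out they were 0 to 2, *Atf6* and *Ppp1r15a* (adjusted p 0.0271 and 0.0361) without *Ctrl* 3 and *Atf6* (0.0490) without *Srsf10-kd* 3. The groups did not overlap for 5 to 8 of the 37 with 1 liver left out, 8 without *Ctrl* 1 or *Srsf10-kd* 1. This count can only stay or rise when a liver is left out, for any list of genes. The share over all genes was not counted here, so a rise says nothing about the 37 genes.

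Replicates with the same number correlated at -0.176, 0.213, 0.265 and 0.217 in their deviations from the group means, and no source says that the numbers pair mice, so the block is reported for completeness. It changed no call among the 37 genes other than that of *Atf6* (log2 fold change -0.66).

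The median log2 fold change of the ATF4 metabolic targets was 0.36 in limma-voom and lay between -0.15 and 0.35 with 1 liver left out (0.35 without *Ctrl* 2 and 0.32 without *Ctrl* 4), and that of the chaperones between -0.16 and 0.14, lowest without *Srsf10-kd* 3. Signs of single genes turned in limma-voom for *Atf5* (0.26), *Xbp1* (-0.035), *Asns* (0.71), *Calr* (-0.0017), *Sdf2l1* (-0.12), *Creld2* (-0.22) and *Herpud1* (-0.019). They turned with the length trend removed for *Ern1* (0.023), *Vldlr* (0.16), *Calr* (-0.021), *Creld2* (-0.19) and *Edem1* (0.13), and with the GC trend removed for *Edem1* (0.0018). With 1 liver left out, ranges that crossed 0 were -0.41 to 0.11 for *Ern1*, -0.27 to 0.21 for *Atf5*, -0.10 to 0.18 for *Xbp1*, -0.43 to 0.53 for *Asns*, -0.60 to 0.35 for *Vldlr*, -0.039 to 0.14 for *Calr*, -0.024 to 0.16 for *Pdia3*, -0.011 to 0.28 for *Dnajb9*, -0.16 to 0.50 for *Sdf2l1*, -0.19 to 0.19 for *Creld2*, -0.29 to 0.067 for *Syvn1* and -0.10 to 0.072 for *Edem1*. The cause was not tested. Over single genes and settings, 580 values kept their direction and their side of the threshold, 35 changed sign and 13 passed the threshold that they had missed as designed. Depth limits *Phgdh*, *Psat1* and *Nupr1* most. GC content over merged exons was not run, since no genome sequence was used.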

Other observations

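The kinases that phosphorylate eIF2α lay lower in the livers labelled *Srsf10-kd* for each of the 4 genes, in values looked up after the lists had been compared, and 0 of 4 passed the adjusted threshold in edgeR's quasi-likelihood test. *Eif2ak1*, the heme-regulated kinase, measured 52.8, 50.2, 50.5 and 54.5 CPM in *Ctrl* and 42.4, 47.2, 36.8 and 43.7 CPM under the *Srsf10-kd* label (log2 fold change -0.29, standard error 0.10, adjusted p = 0.166). *Eif2ak2*, the kinase PKR, measured 23.1, 22.8, 26.4 and 22.0 CPM and 18.9, 18.7, 20.7 and 17.4 CPM (log2 fold change -0.32, standard error 0.10, adjusted p = 0.151). The groups of both genes did not overlap, as held in the lower direction for 7.53% of all genes tested. *Eif2ak4*, the amino acid sensor GCN2, had a log2 fold change of -0.34 (standard error 0.15, adjusted p = 0.236), near the -0.33 of *Eif2ak3*, and the groups of these 2 overlapped. With the length trend removed, *Eif2ak3* had -0.21 (unadjusted p = 0.211 in edgeR's quasi-likelihood test). *Eif2s1*, which encodes eIF2α itself, ranged from 38.9 to 49.5 CPM with a log2 fold change of 0.0014 (standard error 0.11).

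Subunits of the translocation channel were measured in different directions. *Sec61a1*, the pore subunit, had a log2 fold change of -0.28 (standard error 0.11, adjusted p = 0.202 in edgeR's quasi-likelihood test), while the small subunits *Sec61b* and *Sec61g* had 0.64 and 0.57 (standard errors 0.31 and 0.29), with *Srsf10-kd* 3 the highest liver for both and the lowest for *Sec61a1*. Whether the subunits differed was not tested. *Fgf21*, a hepatokine and target of ATF4, followed the livers in the way of *Asns*. It measured 22.3, 11.3, 14.7 and 40.5 CPM in *Ctrl* and 31.2, 11.6, 4.65 and 36.5 CPM under the *Srsf10-kd* label. It was highest in *Ctrl* 4 and lowest in *Srsf10-kd* 3 (log2 fold change -0.08, standard error 0.59). The study names *Fgf21* as a PPARα target and reported it significantly lower with *Srsf10-kd*, by qPCR in a further set of samples.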
